A study of Homo sapiens with 12 samples.

Results

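A set of 10 genes used as markers of intestinal stem cells, LGR5, ASCL2, OLFM4, SMOC2, SOX9, LRIG1, PROM1, CD44, BMI1 and MSI1, were followed across 4 stable lines of HCT116 cells, a human colorectal cancer cell line. The 10 genes were taken by symbol from the 28395 genes of the raw count table, and each symbol matched 1 row. HCT116-EV cells carried the empty pcDNA vector, and HCT116-EHF cells carried a plasmid for EHF, an epithelial transcription factor of the ETS family. HCT116-CDX1 cells carried a retrovirus for CDX1, an intestinal homeobox transcription factor, together with a GFP marker. HCT116-EHF+CDX1 cells were HCT116-CDX1 cells that had then been transfected with the EHF plasmid. Lines with the empty vector or the EHF plasmid were made of clones selected with geneticin (G418), and cells with the CDX1 retrovirus were sorted for GFP, so selection, clone and factor cannot be told apart. The design sets each factor alone and both together against the empty vector. The lines are called EV, EHF, CDX1 and EHF+CDX1 cells from here on. The medium, shared by all lines, was DMEM-F12 plus FCS. Poly(A) RNA was sequenced from 3 libraries of each line, and since the labels do not say whether these came from separate cultures, p-values measure only the spread between these libraries.

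Intestinal stem cells sit at the base of the crypts, where Wnt signals keep them dividing, and their daughters differentiate as they move up the crypt. LGR5, a receptor for R-spondins that strengthens Wnt signalling, and ASCL2, a basic helix-loop-helix transcription factor and Wnt target, mark the cycling cells at the crypt base, as do the secreted proteins OLFM4 and SMOC2. The other 6 markers are broader: SOX9 is also expressed in Paneth cells and progenitors, CD44 and PROM1 in many epithelial and tumour cells, and LRIG1, BMI1 and MSI1 have been used for slower-cycling or progenitor populations.

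Total counts per library ranged from 13523007 to 74186741, and 15853 genes, all 10 markers among them, reached 0.5 CPM (counts scaled by library size) in at least 3 libraries. Levels in CPM are given with TMM factors, which correct library sizes for composition. EHF stood at 299 ± 54.4 CPM (SD, n = 3) in EV, 19310 ± 305 in EHF, 12.3 ± 0.60 in CDX1 and 18710 ± 1433 in EHF+CDX1 cells. CDX1 had at most 4 counts in any library without the retrovirus, and stood at 525 ± 35.8 CPM in CDX1 and 5419 ± 277 CPM in EHF+CDX1 cells, 10.3-fold higher in the latter. The amount of CDX1 therefore differed between the 2 lines that carried it. EV replicate 3 stood apart within its line: the chi-square per degree of freedom of its counts was 297 and 270.4 against replicates 1 and 2, and 4.11 between these. The calls of markers that turned on it are given with and without it. The epithelial genes EPCAM, KRT8, KRT18 and KRT19 were at 265, 2181, 1022 and 1327 CPM on average in EV cells, and the leukocyte gene PTPRC was at 0.0061 CPM.

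A gene was called on in a line when all 3 libraries reached 1 CPM and off when all 3 were below it. By this measure the markers fell into 2 sets. LGR5, ASCL2, OLFM4 and SMOC2 were on in EHF+CDX1 cells and off in the other 3 lines, a pattern held by 178 of the 15853 genes (1.12% of them). SOX9, LRIG1, PROM1, CD44, BMI1 and MSI1 were on in all 4 lines, as were 76.4% of the genes. The 4 members of the first set passed the filter on low values through EHF+CDX1 cells alone, so a difference from the other lines was built into their passing, and their number is not read as support. The adjusted p of EHF+CDX1 cells over the other lines, given below for each of these 4, have the same limit. They describe the difference and are not read as support either. Nearest to the threshold, SMOC2 had a lowest value of 3.04 CPM in EHF+CDX1 cells, and LGR5 a highest value of 0.400 CPM elsewhere. With thresholds of 0.5 or 2 CPM the same 4 and 6 members were found.

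Of the 4 markers on only with both factors, promoter letters from RefSeq were found for OLFM4 and SMOC2 but not for LGR5 and ASCL2. They are shown because these genes moved together, as the bases just before the start of transcription in GRCh38.p14, both on the plus strand (chr13:53028563-53028812 for OLFM4 and chr6:168440934-168441150 for SMOC2, where the last 33 bases before the start are left out because GENCODE places them in an exon of SMOC2).
OLFM4: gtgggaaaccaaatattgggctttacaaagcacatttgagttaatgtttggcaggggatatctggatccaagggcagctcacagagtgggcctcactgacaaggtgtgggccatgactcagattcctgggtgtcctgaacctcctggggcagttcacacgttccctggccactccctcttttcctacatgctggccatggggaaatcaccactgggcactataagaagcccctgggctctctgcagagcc
SMOC2: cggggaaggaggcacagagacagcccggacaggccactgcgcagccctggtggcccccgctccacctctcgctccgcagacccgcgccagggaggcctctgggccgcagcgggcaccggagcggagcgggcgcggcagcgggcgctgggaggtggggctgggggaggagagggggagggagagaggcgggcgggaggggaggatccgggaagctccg
The full 250 bases were 54% G and C for OLFM4 and 75.2% for SMOC2. They were searched on both strands for CATAAA (CDX factors), CCGGAA and AGGAAG (ETS factors), CTTTGA (TCF/LEF) and the E-box CAGCTG, of which both ETS motifs share GGAA. Neither window held any of them, so no letter is in capitals, which says only that these letters are not in these windows. Over all 35116 promoter windows of this length, 9.64% held CATAAA, 14.5% CCGGAA, 28.7% AGGAAG, 11.2% CTTTGA and 14.0% CAGCTG.

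LGR5 (chromosome 12, 71439129 to 71586310) went from nearly no reads to a low but steady level. EV libraries had 1, 0 and 1 counts, EHF libraries 5, 11 and 32, CDX1 libraries 13, 11 and 10, and EHF+CDX1 libraries 336, 252 and 85. In CPM these were at most 0.0431 in EV, 0.266, 0.231 and 0.400 in EHF, 0.285, 0.278 and 0.257 in CDX1, and 5.87, 4.78 and 5.87 in EHF+CDX1 cells. Lines with 1 factor were thus above the empty vector in every library and below the line with both in every library, while EHF and CDX1 overlapped each other. Over pooled counts, EHF+CDX1 cells were 267-fold above EV (95% interval of counting error 73.7 to 2210), 16.5-fold above EHF (12.3 to 22.6) and 19.7-fold above CDX1 cells (14.0 to 28.8). The edgeR adjusted p against a 1.5-fold change was 1.97e-07, 4.21e-06 and 4.05e-07. LGR5 also passed this test with 1 factor alone, at 16.2-fold (4.24 to 137.5) in EHF and 13.5-fold (3.47 to 116) in CDX1 cells over 2 pooled EV counts, with edgeR adjusted p of 0.00099 and 0.000314. The call in EHF cells was lost without replicate 3 of all lines, at an edgeR adjusted p of 0.0599.

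ASCL2 (chromosome 11, 2268498 to 2270588) was close to the floor in every line but one. The counts were 3, 4 and 0 in EV, 0, 0 and 1 in EHF, 0, 1 and 0 in CDX1, and 454, 371 and 101 in EHF+CDX1 cells. This gave 7.93, 7.04 and 6.98 CPM in EHF+CDX1 cells, against at most 0.189 CPM elsewhere. With either factor alone ASCL2 had at most 1 count in a library. The pooled ratio was 105 over EV (50.8 to 262), 1090 over EHF (195 to 43090) and 924 over CDX1 cells (165 to 36520), the last 2 resting on 1 count each. The edgeR adjusted p against a 1.5-fold change was 1.21e-05, 7.91e-06 and 9.86e-07. Without EV replicate 3, the library with 0 counts, the ratio over EV was 47.2, and without EHF replicate 3, which held the single count, the bound over EHF was at least 165-fold. Without EV replicate 3, ASCL2 was also called lower in EHF and CDX1 cells than in EV cells, at edgeR adjusted p of 0.0099 and 0.00391, a difference between 0 or 1 count and 3 or 4.

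OLFM4 (chromosome 13, 53028813 to 53052057), a secreted glycoprotein of the crypt base, had no count in any EV library. EHF libraries held 0, 4 and 0 counts, CDX1 libraries 2, 0 and 0, and EHF+CDX1 libraries 345, 337 and 103. The level with both factors was 6.03, 6.40 and 7.12 CPM. It was at least 208-fold higher than in EV cells, taking 3 counts over the 3 libraries as the limit, 231-fold higher than in EHF (89.9 to 849.8) and 392-fold higher than in CDX1 cells (108 to 3239). These differences had edgeR adjusted p against a 1.5-fold change of 3.85e-05, 0.000102 and 8.58e-06. Without EV replicate 3, the deepest of its line, the bound over EV dropped to 93.3-fold because fewer counts stood behind it.

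SMOC2 (chromosome 6, 168441184 to 168667992), a secreted calcium-binding matrix protein, was the lowest of the 4. Counts were 0, 0 and 2 in EV, 0, 1 and 1 in EHF, 3, 4 and 7 in CDX1, and 174, 166 and 51 in EHF+CDX1 cells, where the levels were 3.04, 3.15 and 3.52 CPM. The pooled ratio was 155 over EV (42.7 to 1286), 230.1 over EHF (63.3 to 1907) and 27.9 over CDX1 cells (16.4 to 51.4), with edgeR adjusted p against a 1.5-fold change of 2.52e-06, 3.74e-06 and 2.02e-06. CDX1 libraries, at 0.0657, 0.101 and 0.180 CPM, were all above those of EV and EHF cells. That difference from EV cells, 5.57-fold over pooled counts (1.28 to 50.5), had an edgeR adjusted p of 0.0331, and was called in 9 of 15 fits that left out a library or a replicate number. Both EV counts of SMOC2 lay in EV replicate 3. Without that library EV cells had 0 counts, and the ratios became bounds, at least 46.5-fold for EHF+CDX1 and at least 1.67-fold for CDX1 cells against a limit of 3 counts over the 2 remaining EV libraries (edgeR adjusted p = 1.62e-07 and 0.0204).

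Levels can be compared between genes only per length, on the deposited log2 RPKM scale (reads scaled by exon length and library size, quantile-normalized by the authors). In EHF+CDX1 cells, the means over 3 libraries were 1.85 ± 0.12 (SD) for ASCL2, 1.02 ± 0.12 for OLFM4, -0.04 ± 0.19 for LGR5 and -0.34 ± 0.11 for SMOC2. These levels stood at the 43.2, 33.9, 24.1 and 21.5 percentile of the 15853 genes in that line. On the same scale and in the same cells CD44 was at 6.96 ± 0.02, SOX9 at 5.56 ± 0.09, MSI1 at 3.96 ± 0.12, PROM1 at 2.25 ± 0.04, LRIG1 at 0.81 ± 0.18 and BMI1 at 0.24 ± 0.19. The 4 induced markers thus reached levels within or below the range of the markers that were expressed throughout. Bulk RNA does not tell whether few cells held much of these transcripts or all cells held little.

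The genes most like each of these 4 markers were found by Pearson's r of log2 CPM over the 12 libraries, given as a description, since 9 of the libraries lie near the floor and the points share lines and depth. For LGR5 they were MGAM2 (r = 0.977), PRR15 (0.975) and IFNL3 (0.975). MGAM2, a maltase-glucoamylase relative, shared the intermediate level with 1 factor, at 0.222 CPM in EV, 0.612 in EHF, 0.595 in CDX1 and 9.44 CPM in EHF+CDX1 cells. ASCL2 was closest to ZNF736 (0.992), IFI16 (0.988) and POF1B (0.988), OLFM4 to LINC00667 (0.997), IRF8 (0.997) and SH3RF3 (0.994), and SMOC2 to PDZRN3 (0.986), QPCT (0.983) and CBR1 (0.982).

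Among the markers expressed in all lines, SOX9 (chromosome 17, 72121020 to 72126416), an HMG-box transcription factor, was higher with either factor, at overlapping levels. EV libraries had 58.3, 57.1 and 65.7 CPM, EHF libraries 176, 168 and 171, CDX1 libraries 170.0, 160.3 and 135, and EHF+CDX1 libraries 179.7, 162 and 165. Every library of the 3 lines with a factor was above every EV library, and those 3 lines overlapped each other. The log2 fold change over EV was 1.51 ± 0.10 (SE) in EHF, 1.36 ± 0.10 in CDX1 and 1.48 ± 0.10 in EHF+CDX1 cells, with edgeR adjusted p against a 1.5-fold change of 1.43e-05, 6.02e-06 and 1.15e-05. Between EHF+CDX1 and EHF cells SOX9 differed by -0.02 on the log2 scale (95% interval -0.22 to 0.17), and between EHF+CDX1 and CDX1 cells by 0.12 (-0.07 to 0.32).

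PROM1 (chromosome 4, 15968228 to 16084023), a membrane glycoprotein known as CD133, had the largest fold changes over EV of these 6 genes in EHF and EHF+CDX1 cells. It stood at 3.96, 3.55 and 6.69 CPM in EV, 34.5, 33.3 and 33.8 in EHF, 10.6, 10.2 and 13.3 in CDX1, and 27.7, 29.0 and 28.3 CPM in EHF+CDX1 cells. No 2 lines overlapped. The log2 fold change over EV was 2.80 ± 0.20 (SE) in EHF, 1.22 ± 0.20 in CDX1 and 2.54 ± 0.20 in EHF+CDX1 cells, at edgeR adjusted p against a 1.5-fold change of 4.71e-06, 0.0027 and 8.28e-06. EHF+CDX1 cells were above CDX1 cells by 1.32 ± 0.19 (adjusted p = 0.00102), and differed from EHF cells by -0.26 ± 0.19, which did not pass (adjusted p = 1). GENCODE places 2.23% of the exon bases of PROM1 in exons of FGFBP2 on the same strand.

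CD44 (chromosome 11, 35139171 to 35232402), the hyaluronan receptor, was the most abundant of the 10 per length in every line. EV libraries held 401, 377 and 645 CPM, EHF libraries 866, 843 and 839, CDX1 libraries 492, 464 and 435, and EHF+CDX1 libraries 786, 775 and 779.9. All libraries of both lines with EHF were above all libraries of both lines without it. The log2 fold change over EV, 0.84 ± 0.17 (SE) in EHF and 0.72 ± 0.17 in EHF+CDX1 cells, did not pass the edgeR test against a 1.5-fold change (adjusted p = 0.186 and 0.422). Without EV replicate 3, the library at 645 CPM, the differences were 1.13 and 1.003 and passed at edgeR adjusted p of 7.41e-08 and 1.59e-06. In CDX1 cells CD44 differed from EV by -0.03 ± 0.17 (adjusted p = 1). EHF+CDX1 cells were above CDX1 cells by 0.75 ± 0.17 (edgeR adjusted p = 0.127, and 0.00106 without EV replicate 3), and by 1.33 with limma voom and quantile normalization (limma adjusted p = 0.000919).

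LRIG1 (chromosome 3, 66378797 to 66501121), a leucine-rich repeat protein that restrains ERBB receptors, passed the test in no comparison with all libraries. Its levels were 5.38, 5.25 and 7.99 CPM in EV, 4.52, 5.29 and 6.07 in EHF, 9.31, 7.33 and 7.74 in CDX1, and 10.6, 9.17 and 11.5 CPM in EHF+CDX1 cells. Each line overlapped its neighbour in the order of levels, in that order from EHF through EV and CDX1 to EHF+CDX1 cells. EHF+CDX1 cells were above EV by 0.73 ± 0.19 (SE) on the log2 scale (edgeR adjusted p = 0.442), and by 0.96 without EV replicate 3 (edgeR adjusted p = 0.029). Above EHF cells they stood by 0.96 ± 0.19 (adjusted p = 0.26), and the edgeR test against a 1.5-fold change was passed without EV replicate 3 (0.93, adjusted p = 0.0498) and with only the libraries compared (0.91, adjusted p = 0.0162). GENCODE places 37.9% of its exon bases opposite exons of SLC25A26, and since the strand setting of the counting is not given in the sources used here, reads of the 2 genes may not be separated.

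BMI1 (chromosome 10, 22321099 to 22331706), a Polycomb repressor subunit, was highest in CDX1 cells. EV libraries had 4.01, 4.83 and 2.87 CPM, EHF libraries 6.22, 6.51 and 6.55, CDX1 libraries 7.80, 6.72 and 7.87, and EHF+CDX1 libraries 4.996, 4.67 and 3.94. The lines with both factors and with none overlapped, and both lay below the lines with 1 factor. BMI1 was higher in CDX1 than in EV cells by 0.96 ± 0.18 (SE) on the log2 scale (edgeR adjusted p against a 1.5-fold change = 0.0224), but only in 10 of 15 fits that left out a library or a replicate number, with 0.76 and an adjusted p of 0.083 without EV replicate 3. DESeq2 gave 0.98 with an adjusted p of 0.11. In EHF cells the difference from EV was 0.74 ± 0.19 (adjusted p = 0.439). The values are uncertain, because 22.8% of the exon bases of BMI1 also belong to the readthrough gene COMMD3-BMI1 and reads there could be left out of both.

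MSI1 (chromosome 12, 120339662 to 120369164), an RNA-binding protein of progenitor cells, was highest with CDX1 alone. The libraries stood at 45.0, 49.7 and 37.7 CPM in EV, 77.8, 81.2 and 75.6 in EHF, 115, 119 and 106 in CDX1, and 61.4, 55.3 and 52.9 CPM in EHF+CDX1 cells. None of the 4 lines overlapped. MSI1 rose by 1.37 ± 0.11 (SE) on the log2 scale in CDX1 cells (edgeR adjusted p against a 1.5-fold change = 9.34e-06), was 0.83 ± 0.11 above EV in EHF cells (adjusted p = 0.0618) and 0.36 ± 0.11 above it in EHF+CDX1 cells (adjusted p = 1). It was the only marker that edgeR called lower in any of the 5 comparisons of lines with all libraries, at -1.01 ± 0.11 in EHF+CDX1 against CDX1 cells (edgeR adjusted p = 0.00088). With total counts in place of TMM factors that difference was -0.65 (adjusted p = 0.244), and on the deposited log2 RPKM values it was -0.73 (limma adjusted p = 0.231). With limma voom and quantile normalization it was -0.72 and did not pass either (limma adjusted p = 0.257).

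**Figure D1:**
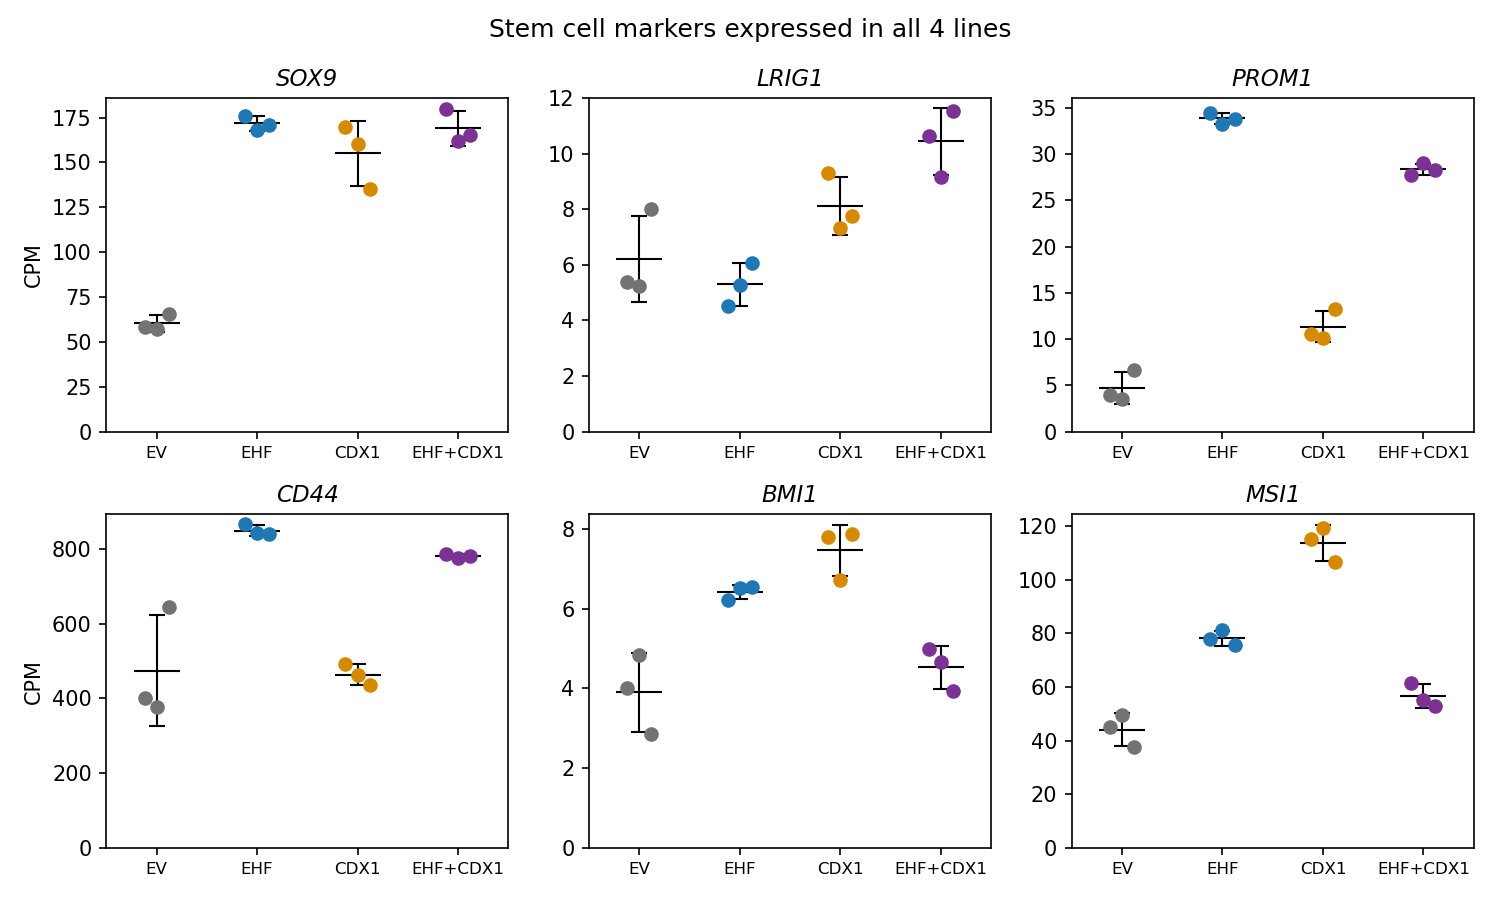
Level of the 6 markers expressed in all lines in TMM-normalized CPM (y axis, from 0) in each library (x axis, line). Points are libraries, and the bar and whiskers give the mean and SD of 3 libraries. SOX9 is about level in the 3 lines with a factor, CD44 and PROM1 are highest in the lines with EHF, and BMI1 and MSI1 are highest with CDX1 alone.

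Set against the whole transcriptome, EHF+CDX1 cells had 6 of the 10 markers called higher than in EV cells (LGR5, ASCL2, OLFM4, SMOC2, SOX9 and PROM1) and 0 lower, where 7.30% of all genes were called higher and 3.13% lower. Without EV replicate 3 the count was 8, with LRIG1 and CD44 added. The 4 markers on only with both factors passed the filter through EHF+CDX1 cells alone and had to differ. Their part in these counts, and in those against EHF and CDX1 cells below, is not read as support. In EHF cells 3 were higher (LGR5, SOX9 and PROM1) and 0 lower, beside 5.68% and 2.65% of genes. In CDX1 cells 6 were higher (LGR5, SMOC2, SOX9, PROM1, BMI1 and MSI1) and 0 lower, in a line where 21.3% of genes were higher and 23.3% lower. These 3 comparisons share the EV libraries. The counts of 0 lower were also 0 by limma voom and DESeq2, and at an unadjusted edgeR p under 0.05 the lower count was 0 in EHF+CDX1, 1 (ASCL2, at its few counts) in EHF and 0 in CDX1 cells. Against EHF cells, the line that shares the EHF plasmid, the 4 markers on only with both factors were called higher in EHF+CDX1 cells and 0 lower (also 0 at an unadjusted edgeR p under 0.05), beside 2.49% and 0.189% of genes. Of the 6 markers expressed in all lines, 0 passed that test with all libraries, by edgeR, limma voom or DESeq2, while LRIG1 passed it without EV replicate 3 and with only the libraries compared, as given above, and LRIG1 and MSI1 passed the edgeR test against no change (adjusted p = 0.00742 and 0.0169). Against CDX1 cells, the same 4 and PROM1 were higher and MSI1 lower, beside 22.3% and 18.7% of genes. With limma voom CD44 was also higher there, and BMI1 was lower in place of MSI1. The TMM factors of CDX1 cells bear on the split of all genes: with total counts alone 2273 genes were higher and 5115 lower in CDX1 than in EV cells (3384 and 3691 with TMM), 5074 higher and 1765 lower in EHF+CDX1 than in CDX1 cells (3529 and 2970 with TMM), and the median of all genes moved by more than 0.1 on the log2 scale in both.

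**Figure D2:**
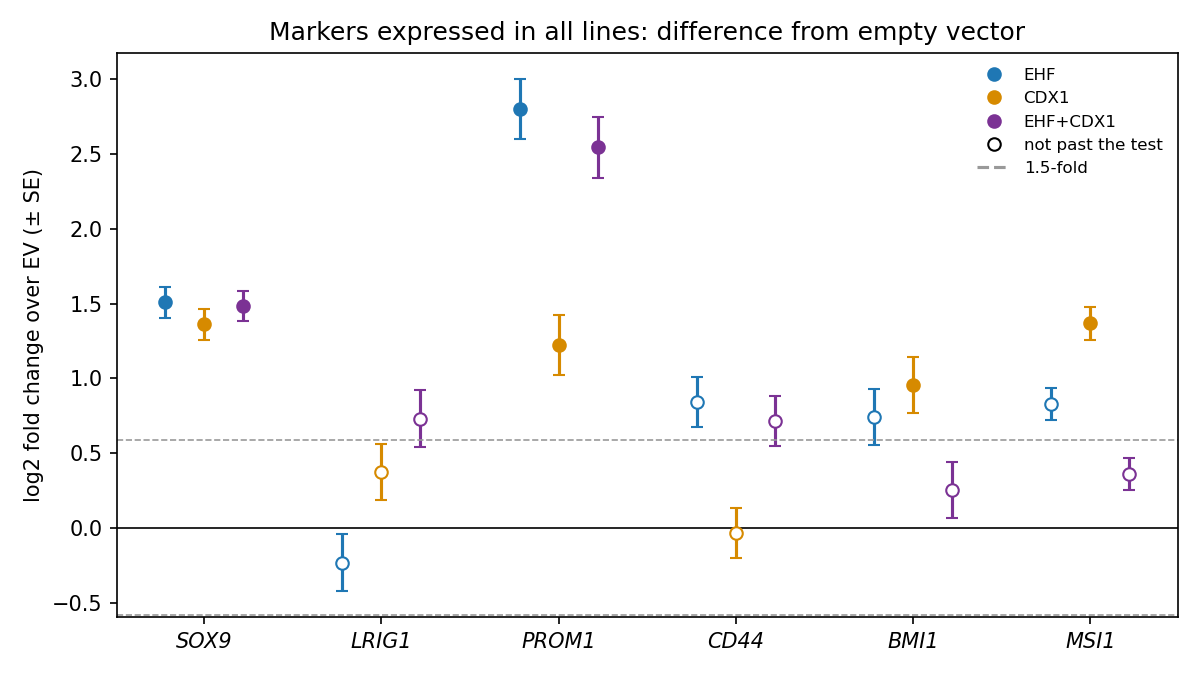
Log2 fold change over EV (y axis, with SE) of the 6 markers expressed in all lines (x axis) in EHF, CDX1 and EHF+CDX1 cells. Filled points passed the edgeR test against a 1.5-fold change (dashed lines) and open points did not. SOX9 and PROM1 passed in all 3 lines, BMI1 and MSI1 with CDX1 alone.

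Whether EHF acted differently without and with CDX1 was tested for the 6 markers expressed in all lines, as the effect of EHF in CDX1 cells (EHF+CDX1 against CDX1) minus its effect in EV cells (EHF against EV). The 4 others had at most 3 counts in each library of at least 1 line, where this difference depends on the prior count, and are not given. SOX9, PROM1, BMI1 and MSI1 had a lower effect of EHF in the presence of CDX1 (4 of 6, with 0 higher), beside 18.0% of genes lower and 20.2% higher. The 0 higher was also 0 by limma voom, by DESeq2 and at an unadjusted edgeR p under 0.05, and with total counts the same 4 were lower, where 1970 genes were lower and 4435 higher (2853 and 3202 with TMM). For SOX9 and PROM1 the rise with EHF was smaller, with 1.51 and 2.80 without CDX1 against 0.12 and 1.32 with it. The difference was -1.38 ± 0.14 (SE, edgeR adjusted p against a 1.5-fold change = 0.000115) for SOX9 and -1.48 ± 0.27 (adjusted p = 0.0039) for PROM1. For BMI1 and MSI1 the sign turned, from 0.74 and 0.83 without CDX1 to -0.71 and -1.01 with it. Here the difference was -1.45 ± 0.26 (adjusted p = 0.00364) for BMI1 and -1.83 ± 0.15 (adjusted p = 1.12e-05) for MSI1. CD44 differed by -0.09 ± 0.23 (95% interval -0.55 to 0.37, adjusted p = 1) and LRIG1 by 0.59 ± 0.27 (0.06 to 1.11, adjusted p = 0.42). The lines with CDX1 differed 10.3-fold in CDX1 level, and EHF in the CDX1 cells started from 12.3 CPM against 299 CPM in EV cells, and the part of these differences in the result was not tested.

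**Figure D3:**
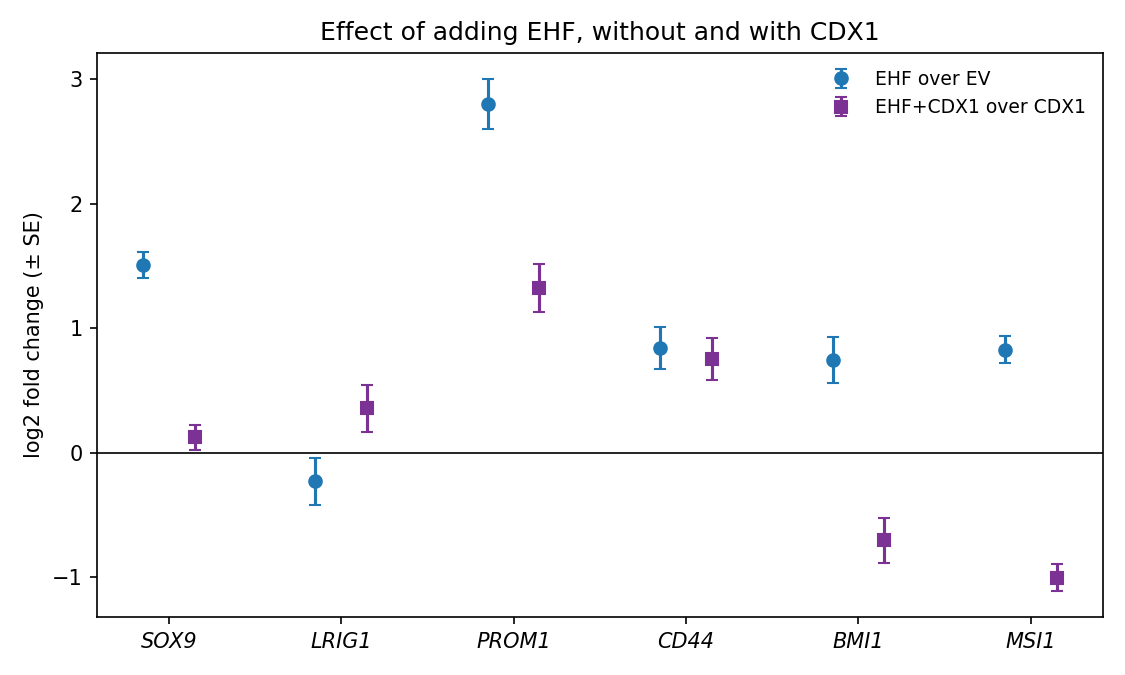
Log2 fold change on adding EHF (y axis, with SE) for the 6 markers expressed in all lines (x axis), without CDX1 (EHF over EV, circles) and with it (EHF+CDX1 over CDX1, squares). For BMI1 and MSI1 the circles are above 0 and the squares below it, while the points of CD44 lie at 0.84 and 0.75.

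Most other genes of the crypt base did not pass the test in EHF+CDX1 cells. Of a list of 24 such genes, 22 were tested, and 5 were higher and 0 lower in EHF+CDX1 than in EV cells. The median log2 fold change was 0.02 against -0.03 over all genes, of which 7.30% were higher and 3.13% lower. Of the 5 higher genes, ALDH1A1, a retinaldehyde dehydrogenase, and DCLK1, a kinase also found in tuft cells, were on only with both factors. Both reached 0.5 CPM in no library of another line, so they were tested only through EHF+CDX1 cells and had to differ. ALDH1A1 was at 41.1 ± 4.25 CPM (SD, n = 3) with both and at most 0.165 CPM on average in the other lines, and DCLK1 at 4.24 ± 0.95 CPM against at most 0.0326. The remaining 3 were CDK6, a cell cycle kinase, RNF43, a Wnt-induced ubiquitin ligase that removes Wnt receptors, and the potassium channel KCNQ1. CDK6 rose in each line, from 4.12 CPM in EV to 94.4, 118 and 92.5 CPM in EHF, CDX1 and EHF+CDX1 cells. RNF43 was 1.35 ± 0.10 (SE) higher on the log2 scale with both factors (edgeR adjusted p = 1.95e-05), as it was with EHF alone (1.39), but it was lower with CDX1 alone (-0.80).

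In CDX1 cells 2 of the 22 genes tested were higher and 11 lower than in EV, with a median of -0.81 against -0.03 over all genes. In that comparison 21.3% of all genes were higher and 23.3% lower. AXIN2, a negative feedback regulator of Wnt signalling and a direct Wnt target, fell in CDX1 cells to 5.93 CPM from 76.9 ± 46.0 CPM (SD, 103 CPM without EV replicate 3), and CDCA7 to 7.94 from 73.9 CPM. The sodium-potassium-chloride transporter SLC12A2 fell to 24.1 from 91.3 CPM, and the telomerase subunit TERT to 2.01 from 8.01 CPM. Without EV replicate 3 the EV means of CDCA7, SLC12A2 and TERT were 85.8, 72.0 and 7.90 CPM. In EHF cells 2 of the 22 were higher and 1, AXIN2, was lower, with a median of 0.02, beside 5.68% and 2.65% of all genes. Against EHF cells, EHF+CDX1 cells had 2 genes of the list higher and 0 lower (median 0.10), beside 2.49% and 0.189% of all genes. The 2 were ALDH1A1 and DCLK1, which were tested only through EHF+CDX1 cells. Against CDX1 cells 12 were higher and 1 lower (median 1.54), beside 22.3% and 18.7% of all genes.

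**Figure D4:**
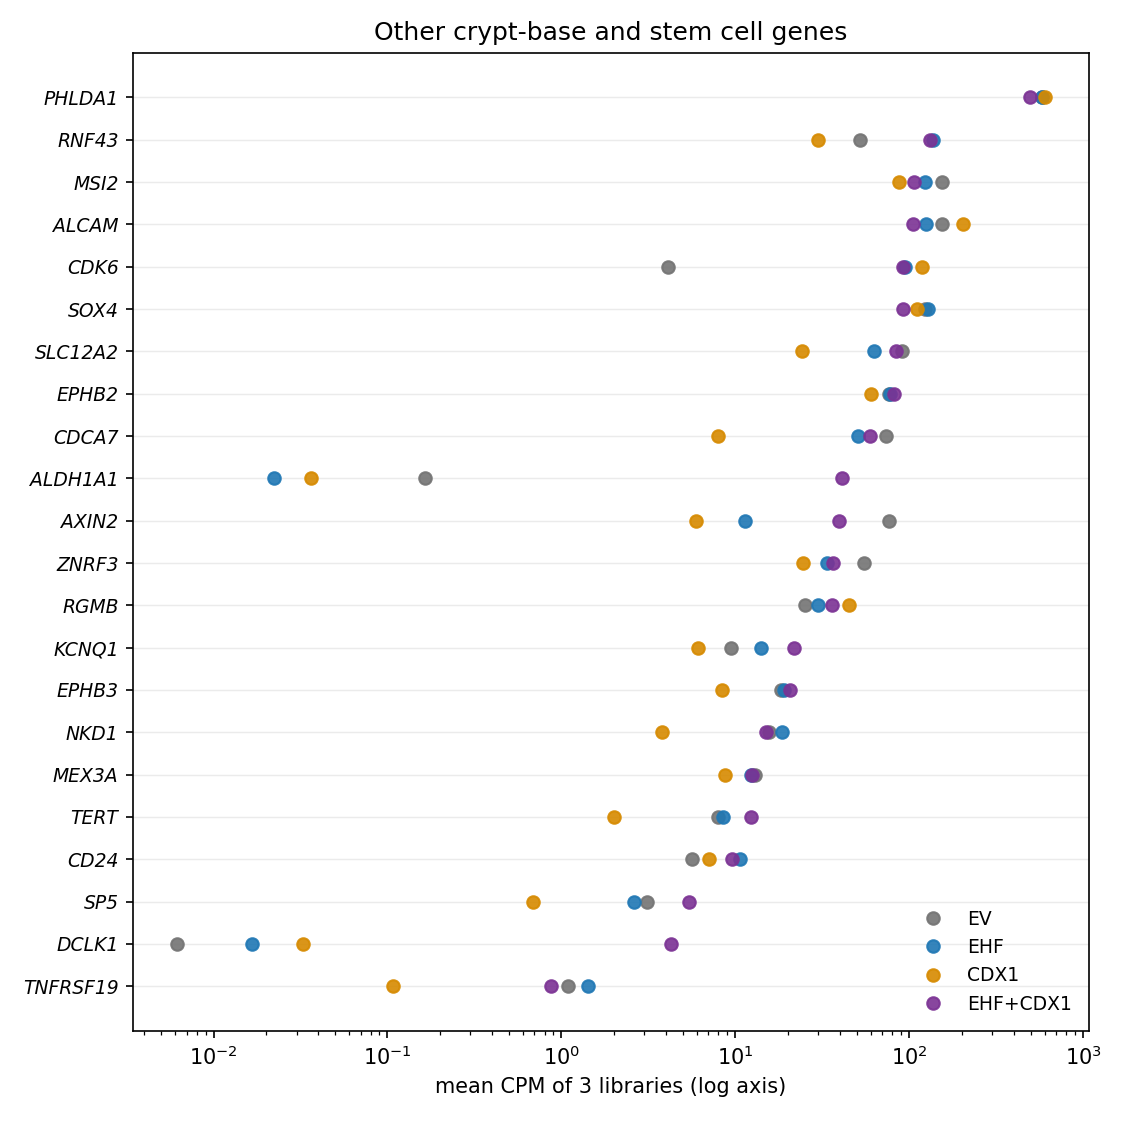
Mean level over 3 libraries in TMM-normalized CPM (x axis, log scale) of the 22 tested crypt-base and stem cell genes (y axis) in the 4 lines. ALDH1A1 and DCLK1 stand at 41.1 and 4.24 CPM with both factors and below 0.2 CPM otherwise, and most other genes have their lowest point in CDX1 cells.

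Some genes of differentiated cells were also higher in EHF+CDX1 cells. Of 16 enterocyte markers 6 were tested, and 5 were higher and 0 lower in EHF+CDX1 than in EV cells, with VIL1, CDH17 and GPA33 on only with both factors, at 50.5, 31.8 and 19.0 CPM. Of the markers not tested, SI was at 0 in EHF+CDX1 cells and at most 0.0718 CPM on average elsewhere, and GUCA2B was at 0 in every line. FABP1 was at 0.731 ± 0.370 CPM (SD) in EHF+CDX1 cells and 0 in the other lines. ALPI was at 0.275 ± 0.242 CPM against at most 0.0280 on average. All of these lie near the floor. Among 10 goblet cell markers 6 were tested and 2, AGR2 and TFF3, were higher (8.30 and 0.644 CPM), and among 8 Paneth cell markers 3 were tested and 2, LYZ and ITLN2, were higher (18.5 and 0.503 CPM), while DEFA6 and REG3A had no count in any line. These counts stand beside 7.30% of all genes, and VIL1, CDH17, GPA33, AGR2, TFF3 and LYZ reached 0.5 CPM in no library of another line. These 6 were tested only through EHF+CDX1 cells and had to differ, and 10 of the 16 enterocyte markers were not tested, so nothing is read from the counts. ANPEP, a brush border peptidase, was at 0.605 CPM in EHF+CDX1 but 3.20 CPM in CDX1 cells, and CA2, a carbonic anhydrase, at 23.0 and 97.5 CPM. ITLN2 was at 0.455 CPM in EHF cells, close to its level with both factors. Against EV cells, EHF cells had 2 enterocyte, 1 goblet and 1 Paneth marker higher, and 1, 0 and 0 lower. CDX1 cells had 2, 0 and 1 higher and 0, 1 and 2 lower. Of all genes 5.68% were higher and 2.65% lower in EHF cells, and 21.3% and 23.3% in CDX1 cells. In EHF+CDX1 against EV cells, none of 5 tested enteroendocrine and tuft markers and none of 6 epithelial markers passed. In CDX1 against EV cells 1 of these 5 was higher and 1 lower, and 1 of the 6 was higher and 3 lower.

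Markers of cells outside the epithelium were given as a check of the culture. The 7 fibroblast markers summed to 34.5 to 76.7 CPM in EV, 39.7 to 44.9 in EHF, 168 to 220.1 in CDX1 and 37.6 to 38.7 CPM in EHF+CDX1 cells, most of it COL1A1, and neither of the 2 tested passed in EHF+CDX1 against EV cells, with DCN at or under 0.0253 CPM on average in each line. In CDX1 against EV cells 1 of the 2 was higher and 0 lower, beside 21.3% and 23.3% of all genes. This was COL1A1, at 185.5 CPM against 46.9 ± 23.1 CPM (SD) in EV cells (edgeR adjusted p = 0.000152). The 7 leukocyte markers summed to 2.51 to 10.97, 13.8 to 15.2, 80.1 to 91.7 and 41.3 to 45.3 CPM in the same order, mostly LYZ, CD14 and CD68. These were the 3 tested, and all 3 were higher in EHF+CDX1 than in EV cells, beside 7.30% of all genes. LYZ, also counted above as a Paneth cell marker, was tested only through EHF+CDX1 cells and had to differ. In CDX1 against EV cells CD14 and CD68 were higher and LYZ, near the floor, was lower, beside 21.3% and 23.3% of all genes. PTPRC was at or under 0.0896 CPM on average. Of the 5 endothelial markers, which summed to at most 2.08 CPM in any library, 1 was tested and did not pass. The part of these genes in the results was not tested.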

How the data were processed

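The authors aligned reads to GRCh38/hg38 with Subread 2.0.0 (version from the submitters' processing notes), kept unique reads and deposited raw counts per RefSeq gene from featureCounts 2.0.0. They also deposited log2 RPKM values, made with a CPM filter, limma voom and quantile normalization. In R 4.3.3, counts were fitted with edgeR 4.0.16 (TMM, quasi-likelihood, 12 libraries, 4 lines) over 15853 genes with 0.5 CPM in at least 3 libraries, leaving out 0.0585% of counts. Calls are from glmTreat at 1.5-fold, with Benjamini-Hochberg adjustment over all genes and a threshold of 0.05. SEs are the log2 fold change over the root of F, and 95% intervals of log2 values are 1.96 SE. For the 4 markers on only with both factors, ratios of pooled counts over effective library sizes replaced fitted folds. This held also where libraries exceeded 3 counts. Their exact binomial intervals cover counting error only, not the spread between libraries. TMM factors were 0.799 to 0.845 in CDX1 and 0.973 to 1.09 elsewhere. The members and lists were chosen with earlier results of these data known. All 10 markers are named, with the 3 genes most like each marker on only with both factors and, of the lists, genes past the test and markers that define a cell type. Further list genes (AXIN2, CDCA7, SLC12A2, TERT, RNF43, KCNQ1, CLU, CCN1, CCN2, LGR4 and LGR6) were chosen after their values were seen. Alternatives were limma 3.58.1, DESeq2 1.42.0, other scalings, filters and tests, a replicate block and leave-outs. Tested on simulated data of 15853 genes with 200 changed 4-fold, edgeR called 97.5% of them for EHF+CDX1 against EV and 87% for the interaction. The changed genes were drawn from those averaging above 1 CPM and were raised in EHF+CDX1 cells only. Means were otherwise equal in all lines, and no outlying library was built in. These rates therefore do not cover markers near the floor in some lines, or a library like EV replicate 3. Positions and promoters are RefSeq's, GRCh38.p14, and exon overlaps GENCODE's. A result for 1 list gene is not reported here.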

Additional observations from a re-analysis of the deposited data

Results flagged for a closer look

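For 4 markers the effect of EHF differed between cells without and with CDX1, by a test of the difference itself. Subtracting the log2 effect of EHF in its absence (EHF against EV cells) from that in its presence (EHF+CDX1 against CDX1 cells) gave -1.38 for SOX9, -1.48 for PROM1, -1.45 for BMI1 and -1.83 for MSI1. Selection, clone and the 10.3-fold difference in CDX1 level between the lines carrying it cannot be told apart here from EHF. Of 15 fits that left out a library or a replicate number, all kept SOX9, BMI1 and MSI1 past the edgeR test and 14 kept PROM1, whose difference was -1.39 (edgeR adjusted p = 0.0732) without replicate 1 of all lines. SOX9, PROM1, BMI1 and MSI1 also passed with each of limma voom, DESeq2, RLE factors, total counts, the unfiltered gene set, the test against no change, the replicate block and the deposited log2 RPKM values. With groups of 3 libraries, no library was tested as an outlier within its line.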

How the results depend on the processing

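The 4 markers on only with both factors and the 6 expressed in all lines were the same number under 0.5 and 2 CPM, total-count scaling and each library left out. With the test against no change, 9 markers were higher in EHF+CDX1 than EV cells (LRIG1, CD44 and MSI1 added) beside 16.9% of all genes. The 9 include the 4 markers tested only through EHF+CDX1 cells. By the same test 6 were higher in EHF than EV cells beside 14.9%. It left 1 (MSI1) lower in EHF+CDX1 than EHF cells beside 4.13%, and 2 (BMI1 and MSI1) lower in EHF+CDX1 than CDX1 cells beside 32.3%. Total-count scaling, and limma on log2 RPKM, each left 0 lower in that last comparison. There limma voom called BMI1 lower (-1.09, limma adjusted p = 0.0452) and not MSI1 (-0.72, limma adjusted p = 0.257). Leave-outs gave 0 to 1 lower in EHF and in CDX1 against EV cells, the 1 being ASCL2 without EV replicate 3 or without replicate 3 of all lines. LRIG1 changed sign in EHF against EV cells without EV replicate 3 (0.027, against -0.35 to 0.027 over all leave-outs), and in EHF+CDX1 against CDX1 cells with limma voom (-0.025). The cause of these changes was not tested.

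Total-count scaling moved the median of all genes from -0.03 to -0.37 (log2) in CDX1 against EV cells, from 0.04 to 0.39 in EHF+CDX1 against CDX1 cells and from 0.05 to 0.37 for the interaction. In CDX1 against EV cells BMI1 then was at 0.60 (edgeR adjusted p = 0.364) and MSI1 still passed. SMOC2 and BMI1 in CDX1 against EV cells did not pass with DESeq2, total counts or only the libraries compared, nor SMOC2 with limma or all genes kept. LGR5 with EHF alone did not pass with limma voom or on log2 RPKM. The replicate numbers did not pair the libraries: 18 correlations of same-numbered deviations lay between -0.07 and 0.08. With a replicate block, 6 markers were higher in EHF+CDX1, 4 in EHF and 6 in CDX1 cells against EV, MSI1 being the addition in EHF cells. Depth limits the 4 induced markers most, as 3 counts are worth 0.0375 to 0.207 CPM.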

Other observations

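Of 16 family relatives of the markers 11 were tested, and 0 were higher and 2 lower in EHF+CDX1 than in EV cells, with a median log2 fold change of -0.54 against -0.03 over all genes, of which 3.13% were lower. The 2 were OLFM1 and OLFM2, olfactomedin-domain proteins like OLFM4, which went from 5.52 to 1.79 CPM and from 49.0 to 13.5 CPM (edgeR adjusted p = 0.00761 and 0.000354). Without EV replicate 3 the EV means of OLFM1 and OLFM2 were 6.24 and 38.85 CPM. LGR4, the R-spondin receptor closest to LGR5, was at 9.84 CPM in EV and 13.6 CPM in EHF+CDX1 cells, and LGR6 at 1.83 and 1.32 CPM, and neither passed.

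A list of 16 genes of regenerating and fetal-like epithelium was tested in full, and 11 were higher and 1 lower in CDX1 than in EV cells, where 21.3% of all genes were higher and 23.3% lower, with a median of 1.84 against -0.03 over all genes. CLU, which marks revival stem cells of the injured crypt, stood at 5923 CPM with CDX1 alone against 196 in EV, 368 in EHF and 319 CPM in EHF+CDX1 cells. The YAP targets CCN1 and CCN2 stood at 560.5 and 118 CPM with CDX1 alone, against 50.6 ± 61.7 and 3.57 ± 4.21 CPM (SD, n = 3) in EV cells. EV replicate 3 held 122 and 8.42 CPM of them, and the EV means without it were 14.9 and 1.14 CPM. In EHF+CDX1 against EV cells the median was 0.49. There IL33, an alarmin cytokine, was on only with both factors, at 1.31 CPM, and was tested only through EHF+CDX1 cells. ANXA10 was lower, at 0.922 CPM against 2.44 CPM in EV cells (edgeR adjusted p = 0.0263). The sum over the list ranged from 1325 to 2845 CPM within EV cells.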
